A study of Mus musculus with 2 samples.

Results

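Genes of cholesterol and fatty acid synthesis were read on the arrays of CH cells, small cells of mouse peripheral blood that were sorted as negative for CD45 and for the markers of blood lineages and positive for a DNA dye. RNA came from adult C57bl/6 mice of 7 months and of both sexes, and each of the 2 arrays held RNA from the blood of 15 mice, with no treatment or transgene named. The submitters call the arrays biological replicates. The general methods of the paper give younger mice and smaller pools than these labels. There was 1 group, so no condition could be compared. The members were a fixed list of 36 genes, from HMG-CoA synthase of the mevalonate pathway to the carnitine palmitoyltransferases. Of these, 35 genes had a probe set (several short array probes for one transcript) that named the gene alone, and together they had 78 probe sets of the 34945 that name 1 gene. The array named 18193 genes in this way. Cpt1b, the muscle carnitine palmitoyltransferase, had no such probe set and was not analysed here.

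Animal cells build cholesterol from acetyl-CoA through mevalonate, isoprenoid diphosphates, squalene and lanosterol, and fatty acids from acetyl-CoA and malonyl-CoA. Both routes are controlled by SREBP transcription factors, membrane proteins that are escorted by Scap from the endoplasmic reticulum to the Golgi for cleavage when sterols are low and are held back by Insig proteins when sterols are high. Dividing cells need both products for new membranes, and stearoyl-CoA desaturases, elongases and fatty acid desaturases set the chain length and the number of double bonds of membrane lipids.

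All 35 genes with a probe set were above 5 (log2) on both arrays, beside 71.2% of all genes on the array. The value of 5 is the one below which the paper removed genes throughout its dataset, and it was taken here as the limit of a readable signal. At a stricter limit of 8, 31 of the 35 genes (88.6%) were above it on both arrays, beside 37.0% of all genes. The 4 others were Tm7sf2, Dhcr7, Npc1 and Acacb. The median level, with each gene read by its highest probe set, was 9.84 over the 35 genes and 6.84 over all genes. With limma, which set the mean of each probe set against 5 and adjusted p by Benjamini-Hochberg over all probe sets, the same count of 35 was above 5, beside 69.1% of all genes, and the highest adjusted p was 0.0042, for Acacb. Passing that test was not limited to genes of known use in these cells. Genes for odorant, pheromone and taste receptors, called chemosensory receptors here and taken as a background, passed it in 11 of 78 cases. By the call on both arrays 13 of these 78 (16.7%) were above 5 and 0 were above 8.

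Signals of different probe sets also reflect probe affinity, so levels of different genes are given side by side and do not rank transcripts by abundance. In pooled RNA, fewer cells with a transcript and less transcript per cell cannot be told apart. Nothing but the design text says how the arrays were replicated, so the SD of the 2 arrays and the p-values measure only the spread between these arrays.

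**Figure D1:**
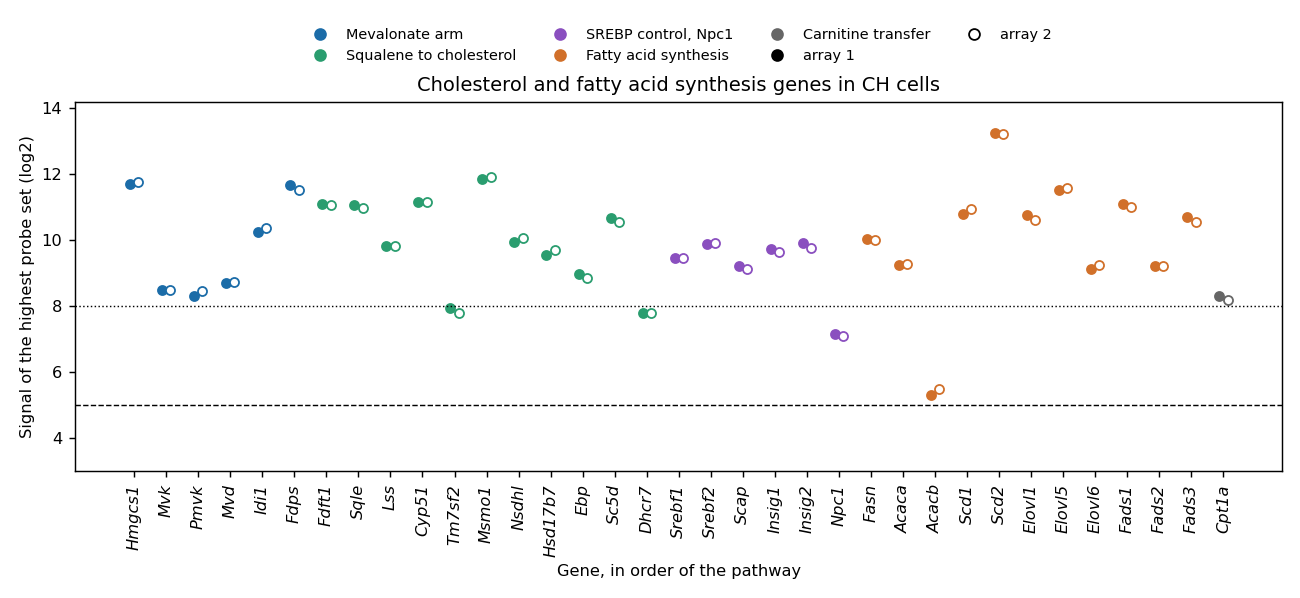
Log2 signal of the highest probe set of each of the 35 genes (vertical axis) on array 1 (filled circles) and array 2 (open circles), with genes along the horizontal axis in the order of the pathway and colours for its steps. A dashed line is drawn at 5 and a dotted one at 8. Every gene is above 5 on both arrays, and only Tm7sf2, Dhcr7, Npc1 and Acacb are below 8.

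The promoters of these genes were read from RefSeq on GRCm38.p6, as windows of 250 bases before and 50 bases after each gene's start, because SREBP factors act there together with NF-Y and Sp1. Of the 36 listed genes, 28 were matched, and Fdps, Fdft1, Sqle, Npc1, Scd1, Scd2, Fads1 and Cpt1b were not. Letters were searched on both strands. The letters CCAAT, the box that NF-Y binds, were in a window of 24 of the 28 genes (85.7%), beside 41.1% of the 27025 genes of the promoter table and 42.7% of the 10419 genes that were above 5 on the arrays. The 4 genes without it were Scap, Acaca, Elovl6 and Fads2. The letters GGGCGG, a site of Sp1, were held by 22 of the 28 (78.6%), beside 66.6% of the genes above 5. An E-box with the letters CACGTG was found for 6 of the 28 (21.4%), namely Hsd17b7, Sc5d, Dhcr7, Scap, Insig1 and Elovl5, beside 11.3% of the genes above 5. The strict core of the sterol regulatory element, written TCACNCCAC, was in a window of 1 of the 28 genes, Hmgcs1 (3.57%), beside 1.4% of the genes above 5. Only these letters were searched, and other forms of the element were not. Members had on average 1.32 windows each and genes above 5 had 1.28, and in 1 of the 37 member windows letters of different motifs shared bases. The comparison with genes above 5 was added after the first shares had been seen. These shares describe letters, and no binding was measured.

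The windows of Hmgcs1, Cyp51 and Fasn are shown as an example of each arm, the mevalonate step, the sterol step and fatty acid synthesis, with the CCAAT box and the sterol element core in capitals. The window of Hmgcs1 lies at chr13:119690101-119690400 on the plus strand, that of Cyp51 at chr5:4104648-4104947 on the minus strand and that of Fasn at chr11:120824498-120824797 on the minus strand, all in GRCm38.p6 and written 5′ to 3′ on the strand of the gene.
Hmgcs1: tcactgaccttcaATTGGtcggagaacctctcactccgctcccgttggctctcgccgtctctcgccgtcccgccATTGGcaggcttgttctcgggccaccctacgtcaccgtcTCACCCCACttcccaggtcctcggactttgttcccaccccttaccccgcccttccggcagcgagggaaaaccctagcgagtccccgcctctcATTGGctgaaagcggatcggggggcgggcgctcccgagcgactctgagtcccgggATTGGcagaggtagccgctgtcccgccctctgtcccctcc
Cyp51: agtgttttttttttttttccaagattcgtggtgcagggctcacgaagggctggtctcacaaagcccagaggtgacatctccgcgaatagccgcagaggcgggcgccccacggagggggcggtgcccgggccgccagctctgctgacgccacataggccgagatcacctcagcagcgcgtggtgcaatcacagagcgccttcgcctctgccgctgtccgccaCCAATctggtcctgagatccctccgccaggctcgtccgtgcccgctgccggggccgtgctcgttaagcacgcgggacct
Fasn: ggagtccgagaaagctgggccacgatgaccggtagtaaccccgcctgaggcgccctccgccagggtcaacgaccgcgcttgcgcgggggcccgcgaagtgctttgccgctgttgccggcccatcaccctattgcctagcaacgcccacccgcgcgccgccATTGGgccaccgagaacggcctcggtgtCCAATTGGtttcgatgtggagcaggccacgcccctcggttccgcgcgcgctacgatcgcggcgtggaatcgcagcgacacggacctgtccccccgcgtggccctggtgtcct

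Counted with -1 as the last base before the start, the sterol element core of Hmgcs1 began at base -137, and its 4 CCAAT boxes, all on the opposite strand, began at -237, -176, -45 and 11. Cyp51 had 1 CCAAT box, beginning at -29, and 1 GGGCGG, at -135. Fasn had 3 CCAAT boxes at -90, -62 and -59, of which the last overlapped the one before it, and no GGGCGG. Over the 37 member windows, which can overlap within a gene, the 49 CCAAT boxes began at a median of -60, and 38 of them began within the 150 bases before the start.

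All 6 genes of the mevalonate arm were above 8 on both arrays, beside 37.0% of all genes. Hmgcs1, which joins acetyl-CoA to acetoacetyl-CoA, was at 11.72 on array 1 and 11.76 on array 2, a level of 11.74 ± 0.03 (SD, n = 2 arrays). Mevalonate kinase, Mvk, was at 8.50 on both arrays. Pmvk, the next kinase, was read at 8.33 and 8.47 by its single probe set. Each of these 3 genes differed by less than 0.20, the SD of the difference between the arrays over all probe sets. Mvd, which decarboxylates the product to isopentenyl diphosphate, was at 8.69 and 8.74. Idi1, the isomerase that makes the allylic partner of that unit, was at 10.26 and 10.37. Fdps, which builds farnesyl diphosphate for sterols and for protein prenylation, was at 11.69 and 11.54. The median of the arm was 9.48 on array 1 and 9.56 on array 2. The highest probe sets of Fdps and Mvk were higher on array 1 and those of Hmgcs1, Pmvk, Mvd and Idi1 higher on array 2.

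From squalene to cholesterol all 11 genes were above 5 and 9 were above 8, beside 71.2% and 37.0% of all genes. Squalene synthase, Fdft1, which commits farnesyl diphosphate to sterols, was at 11.11 and 11.06, a level of 11.09 ± 0.04 (SD, n = 2 arrays). Sqle, the squalene epoxidase and a rate-limiting enzyme of the pathway, was at 11.08 and 10.99 with 1 probe set. Lss, which closes the rings to lanosterol, was at 9.83 on both arrays. The highest probe set of Fdft1 ends in _x_at and that of Lss in _s_at, endings of probe sets that may read other transcripts as well. Without such probe sets Fdft1 was at 10.46 and Lss at 7.60, below 8. Removal of the methyl groups of lanosterol was covered by Cyp51, Msmo1, Nsdhl and Hsd17b7, and a sterol reduction by Tm7sf2. Cyp51, the lanosterol demethylase, was at 11.17 and 11.16. Msmo1, the methylsterol monooxygenase, was at 11.87 and 11.93, and Nsdhl, a sterol dehydrogenase that acts with it, at 9.96 and 10.07. Hsd17b7, the ketosteroid reductase of the same complex, was at 9.56 and 9.71 with an _x_at probe set, and its highest other probe set was at 8.62. Tm7sf2, a sterol reductase, was below 8 on both arrays, at 7.94 and 7.81, and the lamin B receptor Lbr, which carries the same activity, was at 11.59 on both.

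The last steps of the route were covered by Ebp, Sc5d and Dhcr7. Ebp, the sterol isomerase, was at 8.98 and 8.86. Sc5d, the desaturase that follows it, was at 10.68 and 10.56 with its highest probe set. Dhcr7, which reduces dehydrocholesterol to cholesterol, was at 7.80 on both arrays, with an SD of 0.0017. Its adjusted p from limma against 5 was 7.5e-07, with a standard error of 0.070 that draws on the spread of all probe sets. Ebp and Dhcr7 each had a single probe set.

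Of the 6 genes that control the pathway or move its product, all were above 5 and 5 were above 8. Among all genes these shares were 71.2% and 37.0%. Srebf1, the gene of the SREBP form tied mostly to fatty acid synthesis, was at 9.46 on both arrays. Srebf2, whose product acts mostly on cholesterol genes, was at 9.90 and 9.93. The probe set of Srebf1 was taken for the gene as a whole, and its transcript forms were not told apart. Scap was at 9.22 and 9.13. Insig1, itself a target of SREBP, was at 9.72 and 9.64, and Insig2 at 9.92 and 9.76. Insig2 had the largest SD among the highest probe sets of the 35 genes, 0.12, and both of its other probe sets were also above 8 on both arrays. Npc1, which exports cholesterol from lysosomes, was at 7.17 and 7.11, below 8 on both arrays, a level of 7.14 ± 0.04 (SD, n = 2 arrays).

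Fatty acid synthesis was covered by 11 genes, of which all were above 5 and 10 above 8, beside 71.2% and 37.0% of all genes. Fasn, the synthase that makes palmitate, was at 10.05 and 10.01, a level of 10.03 ± 0.03 (SD, n = 2 arrays). Acaca, the cytosolic acetyl-CoA carboxylase that supplies malonyl-CoA, was at 9.25 and 9.29. Acacb, the carboxylase at mitochondria whose malonyl-CoA restrains fatty acid entry, was at 5.33 and 5.49. The second of its probe sets lay below 5, at 4.62 and 4.49. Its adjusted p above 5 was 0.0042 from limma, and its level of 5.41 lay below 6.02, the 95th percentile of the probe sets of chemosensory receptors. It was the only member read in the range of that background, and its median over both probe sets was 4.98.

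Both stearoyl-CoA desaturases, which put the first double bond into saturated fatty acids, were above 8, beside 37.0% of all genes. Scd1 was at 10.80 and 10.94, and its other probe set at a mean of 9.33. Scd2, which lies near Scd1 with 1 protein-coding gene between them in GRCm38.p6, was at 13.24 and 13.22, and its other probe sets at 10.99 and 11.02 and at 7.83 and 8.22. Scd1 and Scd2 thus had all 5 probe sets above 5 on both arrays, beside 64.8% of all probe sets that name 1 gene. Among elongases, Elovl1, which extends saturated chains to very long ones, was at 10.78 and 10.63. Elovl5, which extends polyunsaturated chains, was at 11.53 and 11.58. Elovl6, which extends palmitate, was at 9.14 and 9.24. Without probe sets ending in _s_at or _x_at, Elovl1 was at 9.83 and Elovl5 at 11.40, while Elovl6 did not change.

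The genes of the fatty acid desaturase cluster were all above 8, beside 37.0% of all genes. They are neighbours with no protein-coding gene between them in GRCm38.p6. Fads1, a desaturase of polyunsaturated fatty acids, was at 11.09 and 11.02. Fads2, which acts before it in the same route, was at 9.23 on both arrays. Fads3, the third gene of the cluster, was at 10.70 and 10.56. The 8 probe sets of these genes were all above 5, beside 64.8% of all probe sets that name 1 gene. Cpt1a, which brings long-chain fatty acids into mitochondria and is blocked by malonyl-CoA, was at 8.30 and 8.20, a level of 8.25 ± 0.07 (SD, n = 2 arrays), and its other probe sets were at means of 6.25 and 5.05. The probe set that names Cpt1b together with Chkb and a further gene was at 4.78 and 4.66, and it was not counted for any gene.

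Probe sets of 1 gene often disagreed. At the level of probe sets, 70 of 78 (89.7%) were above 5 on both arrays, beside 64.8% of all probe sets that name 1 gene. Among the 25 genes with more than 1 probe set, the highest and the lowest differed by a median of 4.42 log2 units, and 17 had all their probe sets above 5. The other 8 genes, Hmgcs1, Fdps, Msmo1, Hsd17b7, Scap, Acaca, Acacb and Elovl6, had 1 probe set each that was not above 5 on both arrays. Fdps showed the widest distance of all, with 11.61 for one probe set and 3.33 for the other. Hmgcs1 had 4 probe sets above 5 and another at 4.86 and 5.12. Msmo1 had its second probe set at 4.91 and 4.99, beside 11.90 for the first. For Cyp51 the 3 probe sets were at 11.17, 9.72 and 6.22, and for Lss at 9.83, 7.60 and 5.80. All 8 probe sets not above 5 had names ending in plain _at, which the array's makers give to probe sets of a single transcript. Plain names were also the most common, with 57 of the 78, and the suffixes _a_at, _s_at and _x_at had 0 of 21. Shares by suffix over the whole array were not counted, so no effect of the suffix was tested. Genes with many probe sets have more chances to pass a limit, and members had 2.23 probe sets on average beside 1.92 for all genes. The 10 members with a single probe set were free of this choice, and all 10 were above 5 and 7 above 8, while of the 9183 genes with a single probe set 56.7% were above 5 and 23.3% above 8.

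**Figure D2:**
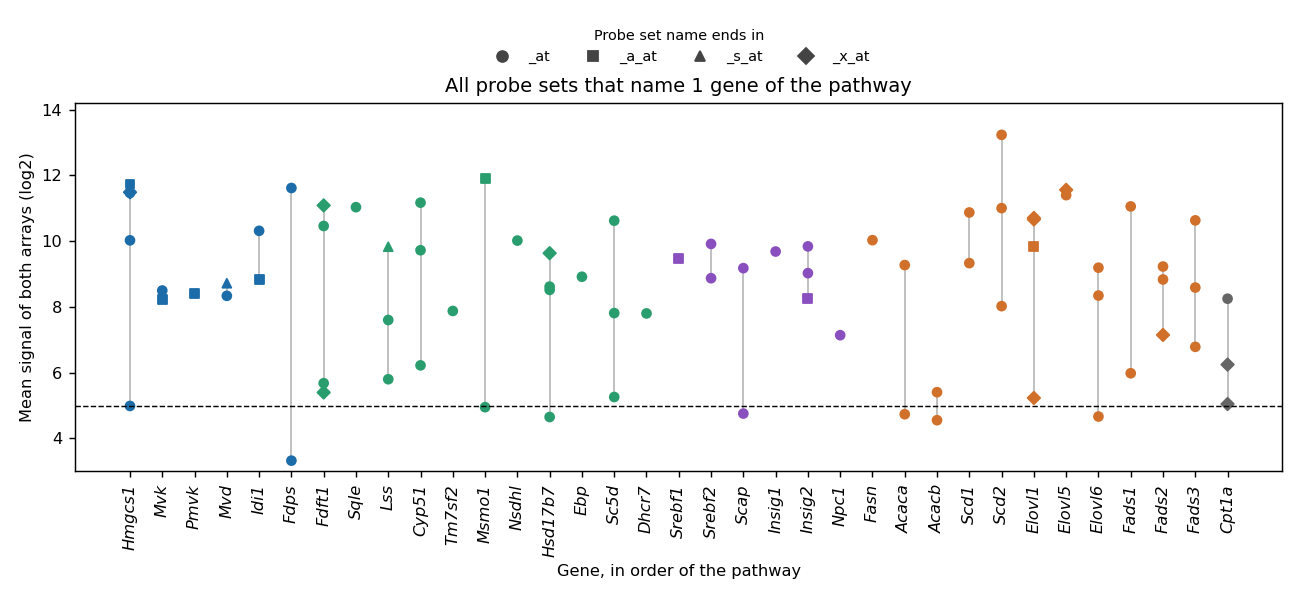
Mean log2 signal of both arrays (vertical axis) for each of the 78 probe sets of the 35 genes, with genes along the horizontal axis in the order of the pathway, a grey line from the lowest to the highest probe set of a gene and a marker shape for the ending of the probe set's name. The dashed line marks 5. Fdps spans from 3.33 to 11.61, while Mvk, Mvd and Elovl5 have probe sets close together.

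The arrays gave close values for the members. Over the highest probe sets of the 35 genes, the difference of array 1 minus array 2 ran from -0.16 for Acacb to 0.17 for Insig2, with a median of 0.0041, and 19 genes were higher on array 1 and 16 on array 2. None of the 35 differences exceeded 0.20, the SD of the difference over all 45037 probe sets other than controls. Over all 78 member probe sets, 10 (12.8%) exceeded it, beside 27.4% of all probe sets, and the difference had an SD of 0.16. Spread on these arrays was larger at low signals. Among probe sets with a mean above 8, the SD of the difference was 0.13 for the 53 of members and 0.12 for all 11213. The widest gaps were in lower probe sets of their genes, with 5.94 and 6.50 for a probe set of Cyp51, 7.83 and 8.22 for one of Scd2 and 8.43 and 8.81 for one of Hsd17b7. With 1 group of 2 arrays these differences were not tested.

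**Figure D3:**
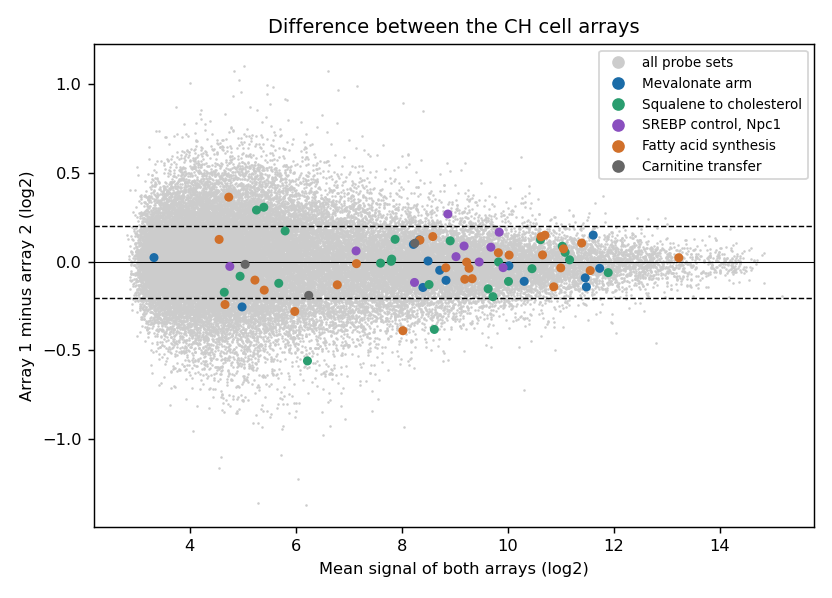
Difference of array 1 minus array 2 (log2, vertical axis) against the mean signal of both arrays (log2, horizontal axis), with grey points for all 45037 probe sets and coloured points for the 78 probe sets of the members by step of the pathway. The dashed lines mark an SD of 0.20 on either side of 0. Most member probe sets lie between the lines, and the widest gap, -0.56, is in a probe set of Cyp51.

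Other genes of the same routes were read from lists of their own. Of 21 further genes of synthesis that were matched, 19 were above 5 and 12 above 8, beside 71.2% and 37.0% of all genes. Acly, which makes cytosolic acetyl-CoA from citrate, was at 11.17, and Slc25a1, which carries the citrate out of mitochondria, at 9.56. The lowest of the 6 probe sets of Acly was at 2.86. Me1, the malic enzyme that supplies NADPH, was at 10.48. The other enzymes of the elongation cycle, Hsd17b12 at 12.26, Tecr at 11.71, Hacd1 at 11.11, Hacd2 at 10.96 and Hacd3 at 10.49, were all above 8 on both arrays. Below 8 were Mlycd, Thrsp, Elovl7, Acss2, Oxsm, Elovl4 and Scd3, from 6.96 to 5.44. Elovl2 was at 3.69 and 4.10, below 5 with an adjusted p of 2.9e-04 from limma, and Elovl3 was at 4.98 and 5.62, on both sides of the limit (adjusted p = 0.12 from limma). Synthesis genes not above the limit were thus both elongases.

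Further genes of SREBP control were above 5 in 9 of 9 cases and above 8 in 8, beside 71.2% and 37.0% of all genes. The proteases that cleave SREBP, Mbtps1 and Mbtps2, were at 10.68 and 9.99. Rnf139, a ubiquitin ligase of the endoplasmic reticulum, was at 11.11, and Erlin1, a membrane protein that restrains SREBP, at 11.41. Lpin1, a phosphatidate phosphatase and regulator of SREBP, was the gene below 8, at 7.62 and 7.36. For uptake, storage and efflux, 13 of 13 matched genes were above 5 and 9 above 8. Npc2, the lysosomal partner of Npc1, was at 12.97, and Stard4, a carrier of sterols in the cytosol, at 9.10. Scarb1, a lipoprotein receptor, was at 9.46, and Abca1, which exports cholesterol, at 9.42. Abcg1, a further exporter, was at 6.25 and the oxysterol receptor Nr1h3 at 5.67. Ch25h and Cyp27a1, which make oxysterols, were at 6.35 and 5.62, also below 8 on both arrays. Here too probe sets disagreed, with the lowest of Rnf139, Erlin1, Npc2 and Abca1 at 3.76, 4.81, 4.47 and 4.03. These lists were not tested against each other or against the members.

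Markers of tissues with a strong lipid metabolism (adipocyte, hepatocyte and steroidogenic) were above 8 in 0 cases on the same arrays, beside 37.0% of all genes. At the limit of 5, which 71.2% of all genes passed, the lists differed. Of 6 adipocyte markers 0 were above 5 on both arrays, and limma called 4 of them below 5. Adipoq was at 3.60 and 3.73, Lep at 4.03 and 4.18, and Pparg at 4.23 and 4.39, while Lipe, Fabp4 and Cidec had means of 4.96, 4.91 and 3.83. Hepatocyte markers were above 5 in 4 of 7 cases and above 8 in 0, with Alb at 4.33 and 3.89 and Cyp7a1, the rate-limiting enzyme of bile acid synthesis, at 4.83 on both arrays. Cyp8b1, a further enzyme of bile acid synthesis, was at 4.92 and 4.85. Ttr, Apoa1, Apoa2 and Apob were at 6.15, 6.08, 5.94 and 5.63. Steroidogenic markers were above 5 in 3 of 6 cases, the highest being Star at 5.61, and Cyp11a1, the enzyme of the first step from cholesterol to steroids, was at 5.26 and 4.85. Nr5a1 and Cyp11b1 had means of 4.77 and 4.34. The markers that the sort excluded were not above 5, with Ptprc, the gene of CD45, at 4.95 and 5.24, Cd5 at 4.50 and 4.55 and Itgam at 3.78 and 3.92. Leukocyte markers were above 5 in 8 of 12 cases (66.7%), beside 71.2% of all genes. Above 8 was 1 of them, Cd14 at 8.25, followed by Csf1r at 7.42, Laptm5 at 6.69 and Cd3e at 6.61. Erythroid markers were above 5 in 2 of 5 cases and platelet markers in 5 of 5, both with 0 above 8. The leukocyte markers not above 5 were Ncr1, Mpo, Cd79a and Ms4a1, with means from 4.76 to 4.33, and the erythroid ones were Alas2, Slc4a1 and Hba-a1, with means from 4.91 to 4.22. Mesenchymal markers were above 5 in 10 of 10 cases and above 8 in 7, with means from 7.32 to 14.27, the highest being Col1a2. Pluripotency markers were above 5 in 8 of 8 cases and above 8 in 5, with means from 6.59 to 10.43, the highest being Sall4. What share of the lipid genes' signal came from any of these cell types was not tested.

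**Figure D4:**
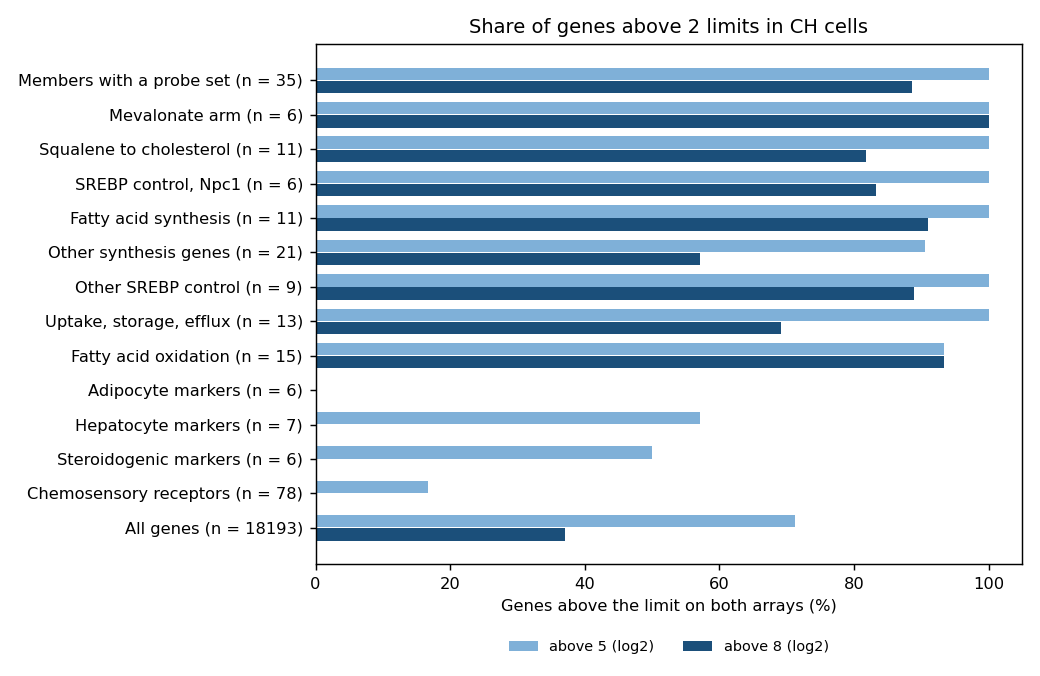
Percentage of genes above 5 (light bars) and above 8 (dark bars) on both CH cell arrays (horizontal axis) for the members, their steps, further genes of the pathway, markers of tissues with a strong lipid metabolism, chemosensory receptors and all genes on the array, with n as the number of genes with a probe set. The members reach 88.6% above 8 and all genes 37.0%, while no adipocyte marker is above 5.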

How the data were processed

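Log2 signals per probe set were used as deposited by the authors for 2 Affymetrix mouse arrays. Per the paper's methods, RMA and quantile normalisation were run on these arrays and 5 public series at once. That the deposited values come from that run, and the tool versions, are not given in the sources used here. The arrays of the other populations were not analysed here. Of 45101 probe sets, 64 controls were left out. Platform annotation named 1 gene for 34945 probe sets, several for 932, and did not list 9160. Member symbols were checked through Entrez identifiers against GRCm38.p6, and 35 of 35 matched. Each gene was read by its highest probe set (mean of both arrays), and a gene was called above a limit when at least 1 probe set was above it on both arrays. In R 4.3.3, limma 3.58.1 compared probe set means with 5 (intercept alone, two-sided, Benjamini-Hochberg over 45037 probe sets, threshold 0.05), and the fit was tested on simulated data. Python 3.11.15, numpy 2.4.6, pandas 2.3.3 and matplotlib 3.10.9 were used. Protein sequences were not used here, so a planned comparison of related members was not run.

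The members and lists were chosen with earlier results of these data known. All members were named, and of other lists the genes below the limit and up to 4 with the highest mean, not all of which are printed. Named after their values were seen were the synthesis genes below 8 but above 5, Hacd1, Hacd2, Hacd3, Me1, Slc25a1, Mbtps2, Lpin1, Scarb1, Abca1, Stard4, Ch25h, Abcg1, Nr1h3, Cyp27a1, Hadha, Acadvl, Acads, Slc25a20, Cpt2 and Cpt1c. The number of arrays limits the precision of every level. Alternatives were limits of 6, 8 and the 95th percentile of the chemosensory background, limma, quantile normalization, the median over probe sets, no _s_at or _x_at probe sets, a filter on dim probe sets and each array alone.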

Additional observations from a re-analysis of the deposited data

How the results depend on the processing

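No paired analysis was possible because both arrays belong to the same group. The count of 35 members above 5 was 34 with a limit of 6, with a limit of 6.02 from the chemosensory background and with a gene's probe sets summarised by their median, 31 with a limit of 8, and 35 to 35 with either array left out. In the first 3 settings the gene lost was Acacb, whose median over its probe sets was 4.98, on the other side of the limit. By limma the count was 34 after a filter on dim probe sets, which kept 22518 probe sets and dropped Acacb. The count of further synthesis genes fell from 19 to 12 at a limit of 8 and that of all genes from 12950 to 6738, as a higher limit admits fewer. No other count of members or of further pathway genes moved by over 1.5 times. Quantile normalization moved member levels by at most 0.0052, and with the median over probe sets the largest change was -4.14 (log2), for Fdps. Without _s_at and _x_at probe sets the largest change was -2.23, for Lss, which then lay at 7.60, followed by Hsd17b7 at 8.62, Elovl1 at 9.83 and Fdft1 at 10.46. Signals near 5 are the least certain.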

Other observations

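Genes of fatty acid oxidation, the route that opposes synthesis, were also read on both CH cell arrays. Of 15 matched genes, 14 were above 5 and all 14 of these were above 8, beside 71.2% and 37.0% of all genes. Hadh, a dehydrogenase of the oxidation cycle, was at 12.24 ± 0.0058 (SD, n = 2 arrays), and the acyl-CoA dehydrogenases Acadl, Acadm, Acadvl and Acads were at 10.68, 10.40, 9.77 and 8.59. Hadha and Hadhb, the subunits of the trifunctional protein, were at 9.88 and 10.48. Slc25a20, which carries acylcarnitines across the inner membrane, was at 9.74 and Cpt2, which releases the acyl group there, at 8.72. Cpt1c, a form of the brain that has little catalytic activity, was at 8.60 with its only probe set. The gene not above 5 was Ppara, the nuclear receptor that drives oxidation genes in liver, at 4.75 on both arrays (adjusted p = 0.018 from limma, below 5). This list was not tested against the members. Probe sets of Hadh, Acadl and Cpt2 also disagreed, with the lowest at 4.37, 3.96 and 4.16.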
